A study of Mus musculus with 7 samples.

Results

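The transcripts of 10 lectin genes were followed in libraries of liver endothelium: 7 C-type lectins and C-type lectin-like receptors (Clec4g, Cd209b, Cd209a, Clec1b, Clec1a, Clec2d and Clec14a), the collectins Colec11 and Colec12, and the ficolin gene Fcna. They were taken by gene symbol from a table of read counts with 52636 mouse genes, and all 10 had a row. The table holds 7 libraries of polyadenylated RNA from mouse liver endothelium sorted by flow cytometry, 3 with the genotype Control and 4 with the genotype c-Maf KO, in which Maf, the gene of the basic leucine zipper factor c-Maf, is knocked out. No treatment is named, and the sources used here give neither the allele, the Cre line or promoter, the deleted exons, nor the age of the mice. No label says that each library is a separate animal, and p-values therefore reflect only how far these libraries differ, which may be technical.

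C-type lectins carry a fold that in many members binds sugars with the help of calcium. Liver sinusoidal endothelial cells line the sinusoids, take up glycoproteins and particles from the blood, and are known for several such receptors on their surface. Collectins join a lectin domain to a collagen-like stem, and the secreted collectins and ficolins carry proteases that start the lectin pathway of complement. c-Maf binds DNA at Maf recognition elements, whose conserved half-site is TGCTGA.

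Of the 9 lectin genes with enough counts to be tested, 6 fell in the KO, none rose and 3 did not pass the test. The 6 were Clec4g, Cd209b, Clec1b, Clec14a, Colec11 and Colec12, falling between 2.30-fold and 9.13-fold, and in each of them every KO library lay under every control library. Clec1a, Clec2d and Fcna had overlapping groups, and Cd209a was at the limit of detection. "Fell" and "rose" here mean an adjusted p under 0.05 in the quasi-likelihood F-test of edgeR with Benjamini-Hochberg adjustment over 15512 genes. By that rule 22.2% of all genes tested fell, 23.0% rose and 45.2% changed in either direction, and the groups did not overlap in 50.3% of genes. The tested lectins had a median log2 fold change of -1.39, against 0.04 over all genes tested, and 5.95% of all genes fell with a log2 fold change under -1, as all 6 fallen lectins did.

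Each library held between 24772716 and 32960007 counts, and values are CPM, counts brought to a common library total after scaling by trimmed mean of M-values (TMM). Maf itself, the targeted gene, had 1664, 2088 and 2147 CPM in the controls and 28.9, 158.9, 124.5 and 37.7 CPM in KO 1 to 4. KO 1 and KO 4, the KO libraries with the least Maf, stood apart from KO 2 and KO 3: 12 hepatocyte marker genes had a median level, relative to controls, of 476%, 122%, 163% and 250% in KO 1 to 4. Endothelial identity genes were abundant in every library, with Cdh5, the gene of VE-cadherin, at 1859 to 2045 CPM in controls and 1196 to 1903 CPM in KO. Of 10 such genes 4 fell (Kdr, Tek, Pecam1 and Erg) and 1 rose (Egfl7). The share that fell was 40.0%, beside 22.2% of all genes tested, with a median log2 fold change of -0.30. Markers of T and NK cells summed to 0.0885 to 0.833 CPM per library, 1 of 5 tested B cell markers fell, and none of 3 neutrophil and 5 erythroid markers passed. Because RNA was measured in bulk, fewer cells of a type and less RNA per cell cannot be told apart.

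The promoter sequences of 3 of the fallen receptors and of Clec2d, which did not pass, are shown because Clec1b and Clec2d lie in one gene cluster and Clec4g and Cd209b in another. Each is the 250 bases before the RefSeq start of the gene (GRCm38.p6), written 5′ to 3′ on the strand of the gene, with a Maf half-site in capitals. They lie at chr8:3720652-3720901 (minus strand, Clec4g), chr8:3926842-3927091 (minus, Cd209b), chr6:129397047-129397296 (plus, Clec1b) and chr6:129180365-129180614 (plus, Clec2d).
Clec4g: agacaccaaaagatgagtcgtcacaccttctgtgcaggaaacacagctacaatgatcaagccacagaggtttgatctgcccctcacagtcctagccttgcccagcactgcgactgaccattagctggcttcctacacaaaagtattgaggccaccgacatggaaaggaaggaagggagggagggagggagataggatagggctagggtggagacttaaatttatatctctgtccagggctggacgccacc
Cd209b: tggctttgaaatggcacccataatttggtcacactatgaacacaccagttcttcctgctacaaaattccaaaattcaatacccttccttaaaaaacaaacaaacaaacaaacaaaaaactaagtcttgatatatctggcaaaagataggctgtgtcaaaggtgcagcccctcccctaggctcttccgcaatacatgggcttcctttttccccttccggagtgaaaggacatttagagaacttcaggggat
Clec1b: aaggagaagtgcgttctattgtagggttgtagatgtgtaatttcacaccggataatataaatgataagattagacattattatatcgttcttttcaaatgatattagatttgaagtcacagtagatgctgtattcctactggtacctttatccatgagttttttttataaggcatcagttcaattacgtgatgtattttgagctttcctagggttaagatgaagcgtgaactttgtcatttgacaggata
Clec2d: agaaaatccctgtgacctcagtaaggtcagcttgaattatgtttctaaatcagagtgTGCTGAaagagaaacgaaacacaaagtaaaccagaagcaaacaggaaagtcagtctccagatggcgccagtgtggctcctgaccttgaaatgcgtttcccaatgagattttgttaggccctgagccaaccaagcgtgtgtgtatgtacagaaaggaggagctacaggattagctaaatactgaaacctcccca
The half-site TGCTGA was searched on both strands, together with the AP-1 core TGANTCA, which can overlap it. Of 8 members with a window in the table, 3 held the half-site: Clec2d with its match starting 193 bases before the start, Cd209a at 132 bases, and Fcna at 107 and 90 bases. None of the windows of Clec4g, Cd209b, Clec1b, Clec14a and Colec11 held one, and no window of the 8 held the AP-1 core. The windows of Clec14a, Colec11, Fcna and, by its last bases, Cd209b reach past the GENCODE start into annotated transcript, so distances from the RefSeq start differ there from those to the GENCODE start. Among 32851 windows of the same length in the table, 16.1% held the half-site and 6.75% the AP-1 core. These are matches of letters in one window and say nothing of binding by the factor.

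Clec4g encodes LSECtin, a sugar-binding receptor of liver and lymph node sinusoids that also curbs T cell activation. It lies on chromosome 8 (GRCm38) between 3707064 and 3720651, minus strand (ENSMUSG00000074491, protein-coding). Its level was 4050, 4338 and 3939 CPM in controls 1 to 3 and 1022, 1583, 1746 and 1201 CPM in KO 1 to 4. The control libraries lay close together and the highest KO library held less than any of them. From 4109 ± 206 (SD, n = 3) to 1388 ± 334 CPM (n = 4), Clec4g fell 2.96-fold, at a log2 fold change of -1.57 (SE 0.196, edgeR adjusted p = 0.000301). An antisense gene, Gm16553, overlaps Clec4g, and whether the counting used strand is not stated in the sources used here. Its total count over the 7 libraries was 2007, against 305261 for Clec4g in the controls alone.

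Cd209b, from 3917655 to 3926844 on the minus strand of the same chromosome (ENSMUSG00000065987), encodes a mouse relative of DC-SIGN known from marginal zone macrophages of the spleen, where it binds bacterial polysaccharides. Controls 1 to 3 held 18.5, 27.2 and 25.1 CPM, and KO 1 to 4 held 0.955, 3.55, 4.31 and 1.53 CPM. KO 1 and KO 4 were lower than KO 2 and KO 3, and all 4 were far under the controls. It fell 9.13-fold, from 23.6 ± 4.56 to 2.59 ± 1.60 CPM, with the largest change among the lectins tested (log2 fold change -3.18, SE 0.423, edgeR adjusted p = 0.00042). Without KO 1 and KO 4 together the log2 fold change was -2.58 (edgeR adjusted p = 0.000234). A log2 fold change lower than that of Cd209b was found in 0.309% of all genes tested.

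Cd209a encodes the mouse receptor most often compared with DC-SIGN of dendritic cells and lies between both, from 3743397 to 3748984 (ENSMUSG00000031494). Its raw counts were 0, 2 and 1 in the controls and 0, 3, 2 and 2 in the KO libraries. These are at or under 3 counts, the limit that a count of 0 allows in 1 library (0.0873 to 0.132 CPM), so no fold is given and no difference was detectable at this depth. Between the ends of Clec4g and Cd209b the annotation lists 10 genes, of which 3 were tested. They were both receptors, which set the span, and Gm16553, which overlaps Clec4g. Gm16553 fell from 13.1 ± 1.89 to 8.27 ± 1.61 CPM. With the ends chosen as fallen genes and the strand of counting unknown, the number that fell says nothing of the region.

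The ratio of the counts of both receptors, which does not depend on library scaling, was taken in each library as a description, since the pair was chosen with both changes known. An exact permutation test gave p = 0.0571 for each of the 3 ratios in this report. That is the smallest p that 35 splits allow, so the test could not pass and no call rests on it. There were 219, 159 and 157 Clec4g counts per Cd209b count in controls 1 to 3. In KO 1 to 4 there were 1071, 446, 406 and 783. Every KO ratio exceeded every control ratio, with a mean log2 ratio of 7.46 in controls and 9.29 in KO.

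Clec1b, the receptor for podoplanin on platelets, which is also present on mouse sinusoidal endothelium, lies on chromosome 6 from 129397297 to 129409335 on the plus strand (ENSMUSG00000030159, protein-coding). Its level was 316, 336 and 330 CPM in controls 1 to 3 and 113, 134, 142 and 110 CPM in KO 1 to 4. The libraries within each genotype were close to each other, with a coefficient of variation of 3.11% in controls and 12.4% in KO. Clec1b fell 2.62-fold, from 327 ± 10.2 to 125 ± 15.5 CPM, at a log2 fold change of -1.39 (SE 0.111, edgeR adjusted p = 3.29e-05). Of 9 platelet and megakaryocyte markers tested, 5 rose (Itga2b, Ppbp, Gp1bb, Gp5 and Gp9), 1 fell (Gp1ba) and 3 did not pass. Their median log2 fold change was 1.37, and 23.0% of all genes tested rose. The platelet marker genes summed to 78.6 to 126 CPM in controls and 113 to 190 CPM in KO. Without Itgb3, the most abundant of them, which did not pass, the sums were 24.9 to 28.0 and 36.2 to 52.8 CPM. Gp1bb, Gp5 and Gp9 rest on few reads, with 9, 13 and 13 counts over the controls. Clec1b overlaps Clec9a on the same strand at its end, and 136 of its 5146 stretches of 50 bases also occur in Clec9a.

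Clec1a, next to it on the minus strand from 129424772 to 129452000 (ENSMUSG00000033082), encodes an endothelial receptor for fungal melanin. Controls 1 to 3 held 85.1, 129 and 154 CPM, and KO 1 to 4 held 92.0, 92.4, 131 and 109 CPM. The KO libraries fell inside the range of the controls. The means were 123 ± 35.1 and 106 ± 18.3 CPM (log2 fold change -0.21, SE 0.199, edgeR adjusted p = 0.403), and with library totals in place of scaling factors the sign turned, at 0.05. The ratio of Clec1b to Clec1a counts was 3.72, 2.60 and 2.13 in controls 1 to 3 and 1.23, 1.45, 1.08 and 1.01 in KO 1 to 4. All KO ratios were lower, with a mean log2 ratio of 1.45 in controls and 0.24 in KO, again as a description.

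Clec2d encodes a ligand that holds back natural killer cells through the inhibitory receptor Klrb1b, and lies from 129180615 to 129186534 on the plus strand (ENSMUSG00000030157). It stood at 114, 122 and 138 CPM in controls and at 127, 145, 120 and 163 CPM in KO 1 to 4. The groups overlapped, with 125 ± 12.3 and 139 ± 19.4 CPM (log2 fold change 0.16, SE 0.124, edgeR adjusted p = 0.326). With library totals, which moved the median log2 fold change of all genes to 0.31, Clec2d passed at 0.43 (edgeR adjusted p = 0.0287). Its share of the summed CPM of the 10 members was 2.21% ± 0.262 in controls and 6.65% ± 1.74 in KO, and that of Clec1a was 2.18% ± 0.648 and 4.98% ± 0.860.

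The span of chromosome 6 from Clec2d at 129180615 to the end of Klrd1 at 129598775 is part of the lectin-rich NK gene complex, and 22 annotated genes lie in it. Of 15 tested, 6 fell and none rose, beside 22.2% of all genes tested that fell and 23.0% that rose. These calls are not all separate, since the member Clec1b overlaps Clec9a on the same strand. The 6 that fell were Clec1b, Clec9a, Clec7a (in the annotation a polymorphic pseudogene), Cd69, Gabarapl1, an autophagy gene with no lectin domain, and Gm43914, which lies inside Clec9a. Gabarapl1 fell from 162 ± 21.6 to 80.6 ± 11.2 CPM (edgeR adjusted p = 0.000353). Clec12b, between Cd69 and Clec1b, was at 2.84 ± 1.24 and 5.15 ± 1.67 CPM and did not pass (edgeR adjusted p = 0.0704). The natural killer receptor genes Klrd1 and Klre1 had 4 and 5 counts over all 7 libraries.

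Clec14a, on chromosome 12 between 58264720 and 58269290, minus strand (ENSMUSG00000045930, protein-coding), encodes a C-type lectin-like membrane protein of endothelium that binds the matrix protein multimerin 2 and takes part in vessel sprouting. Its level was 1023, 852 and 894 CPM in controls 1 to 3 and 274, 486, 481 and 362 CPM in KO 1 to 4. KO 1 was the lowest and KO 4 the next, and no KO library reached the lowest control. Clec14a fell 2.30-fold, from 923 ± 88.9 to 401 ± 102 CPM, at a log2 fold change of -1.20 (SE 0.197, edgeR adjusted p = 0.00129). Without KO 1 and KO 4 the log2 fold change was -0.93 (edgeR adjusted p = 0.00198). Its ligand gene Mmrn2 fell from 1060 ± 91.5 to 737 ± 114 CPM (edgeR adjusted p = 0.0161), and passed in 12 of 18 alternative settings. Leaving out control 1, control 2 or KO 4 ended that call, at an edgeR adjusted p of 0.0584, 0.0624 and 0.0509, as did library totals (0.1) and leaving out KO 1 and KO 4 together (0.0907). Cd93, a related endothelial receptor of the same ligand, was at 591 ± 73.8 and 514 ± 108 CPM and did not pass (edgeR adjusted p = 0.356).

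**Figure D1:**
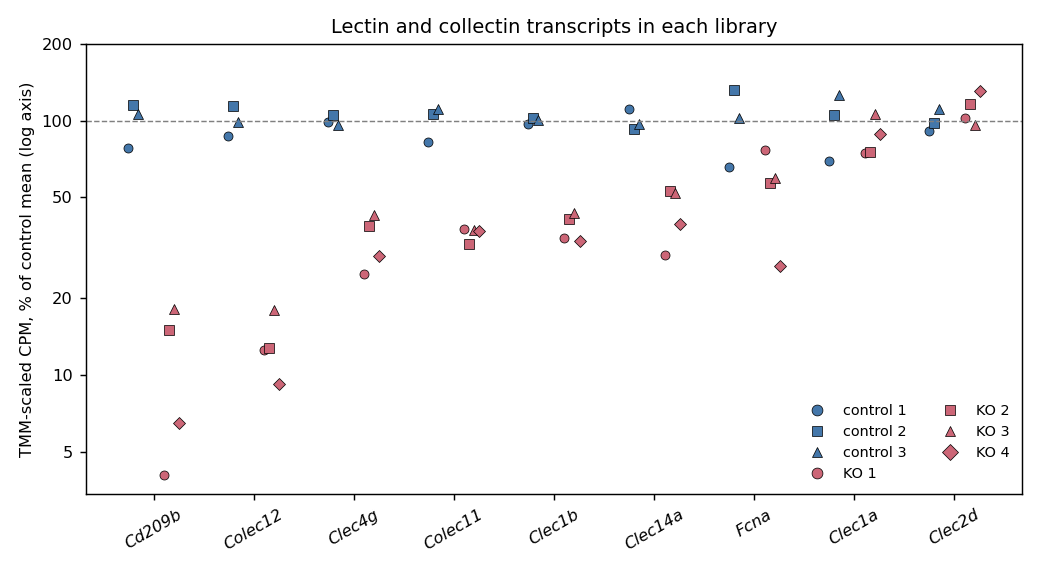
Level of 9 lectin genes in each library as a percent of the control mean of TMM-scaled CPM, on a log axis. Blue points are the 3 controls and red points the 4 KO libraries, with one marker shape per library number. Cd209b and Colec12 lie lowest in the KO (10.9% and 13.1% of the control mean), Clec4g, Colec11, Clec1b and Clec14a between 33.8% and 43.4%, and Fcna, Clec1a and Clec2d overlap the controls.

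Colec11, on chromosome 12 between 28594173 and 28623377, minus strand (ENSMUSG00000036655), encodes a secreted collectin that binds sugars of microbes and carries the proteases of the lectin pathway. It was scarce, at 3.02, 3.91 and 4.08 CPM in controls 1 to 3 and 1.38, 1.20, 1.37 and 1.36 CPM in KO 1 to 4, from 270 and 169 counts in all. The KO libraries were nearly equal and none reached the controls. Colec11 fell 2.77-fold, from 3.67 ± 0.569 to 1.33 ± 0.0823 CPM (log2 fold change -1.46, SE 0.194, edgeR adjusted p = 0.000419).

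Colec12, on chromosome 18 from 9707595 to 9882644 on the plus strand (ENSMUSG00000036103), encodes a membrane-bound collectin that acts as a scavenger receptor. Controls 1 to 3 held 14.4, 19.0 and 16.4 CPM, and KO 1 to 4 held 2.09, 2.12, 3.00 and 1.53 CPM. The highest KO library held far less than the lowest control. Of its stretches of 50 bases, 4.33% also occur in other annotated transcripts. Colec12 fell 7.61-fold, from 16.6 ± 2.29 to 2.18 ± 0.605 CPM (log2 fold change -2.92, SE 0.216, edgeR adjusted p = 2.41e-05). The ratio of Colec12 to Colec11 counts was 4.77, 4.85 and 4.03 in controls 1 to 3 and 1.51, 1.76, 2.19 and 1.13 in KO 1 to 4. All KO ratios were lower, with a mean log2 ratio of 2.18 in controls and 0.68 in KO, likewise as a description.

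Colec10, the partner with which Colec11 forms mixed complexes, had 7.90, 12.5 and 14.1 CPM in controls and 2.55, 2.31, 1.75 and 3.75 CPM in KO 1 to 4, again without overlap. It fell 4.45-fold (log2 fold change -2.15, SE 0.281, edgeR adjusted p = 0.000377). Markers of hepatic stellate cells and fibroblasts were set beside the collectins. Of 12 tested, 7 fell (Lrat, Des, Rgs5, Reln, Pdgfra, Dcn and Hgf), none rose and 5 did not pass, and all 13 had counts. Their median log2 fold change was -1.57, and 58.3% fell, beside 22.2% of all genes tested. Lrat, which stores vitamin A in stellate cells, fell from 3.56 ± 0.646 to 1.09 ± 0.346 CPM and the muscle filament gene Des from 3.67 ± 0.129 to 0.995 ± 0.372 CPM (edgeR adjusted p = 0.00135 and 0.000736). The list summed to 118 to 315 CPM in controls and 68.8 to 146 CPM in KO. Without Hgf, its most abundant gene, the sums were 24.1 to 182 and 12.0 to 50.5 CPM. Lrat, Des and Rgs5 fell in all 18 alternative settings, Dcn in 17, Hgf in 14, Reln in 11, and Pdgfra in 10 of the 17 that tested it. Without KO 1 and KO 4 together, Dcn, Hgf, Reln and Pdgfra did not pass (edgeR adjusted p = 0.0933, 0.0735, 0.11 and 0.134). Limma-voom and lane 5 alone also ended the calls of Reln (adjusted p = 0.0925 and 0.141) and Pdgfra (0.0593 and 0.0872). With 1 library left out, the call of Reln was lost without control 2, control 3 or KO 4 (edgeR adjusted p = 0.0802, 0.103 and 0.0656), that of Pdgfra without control 3, KO 2 or KO 4 (0.189, 0.0673 and 0.0792) and that of Hgf without control 2, control 3 or KO 4 (0.0864, 0.0518 and 0.0543). The fibrillar collagen genes Col1a1, Col1a2 and Col3a1 did not pass and were highest in control 3. The part of these cells in the levels of Colec10, Colec11 and Colec12 was not tested.

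Fcna, on chromosome 2 between 25624666 and 25628030, minus strand (ENSMUSG00000026938), encodes ficolin A, a secreted lectin of the complement pathway made by macrophages in liver and spleen. Controls 1 to 3 held 3.60, 7.29 and 5.61 CPM and KO 1 to 4 held 4.21, 3.13, 3.26 and 1.48 CPM. KO 1 lay above control 1, so the groups overlapped. Its antisense neighbour Fcnaos, which overlaps it, had 54 counts over the 7 libraries. The means of 5.50 ± 1.84 and 3.02 ± 1.14 CPM gave a log2 fold change of -0.87 (SE 0.348), which did not pass (edgeR adjusted p = 0.0687). It passed without control 1 (-1.10, edgeR adjusted p = 0.0406), without KO 1 (-1.07, edgeR adjusted p = 0.0391), with no filter on low counts (-0.85, edgeR adjusted p = 0.0493) and in DESeq2 (-0.89, adjusted p = 0.0316). Of 15 Kupffer cell and macrophage markers, 3 fell (C1qb, Cd163 and Slc40a1), 1 rose (Cd68) and 11 did not pass, among them Clec4f at 18.3 ± 7.10 and 11.5 ± 4.76 CPM. C1qb and Slc40a1 fell in all 18 alternative settings, while the calls of Cd163 and Cd68 held in 9 and 11 of 18. With 1 library left out, the call of Cd163 was lost without control 2, control 3, KO 1 or KO 3 (edgeR adjusted p of 0.0621 to 0.166), and that of Cd68 without control 1, control 3, KO 1, KO 2 or KO 4 (0.0785 to 0.129). The list summed to 607 to 839 CPM in controls and 144 to 349 CPM in KO. Without Slc40a1, an iron exporter gene at 495 CPM in controls, the sums were 106 to 342 and 75.5 to 231 CPM. The part of macrophages in the level of Fcna was not tested.

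**Figure D2:**
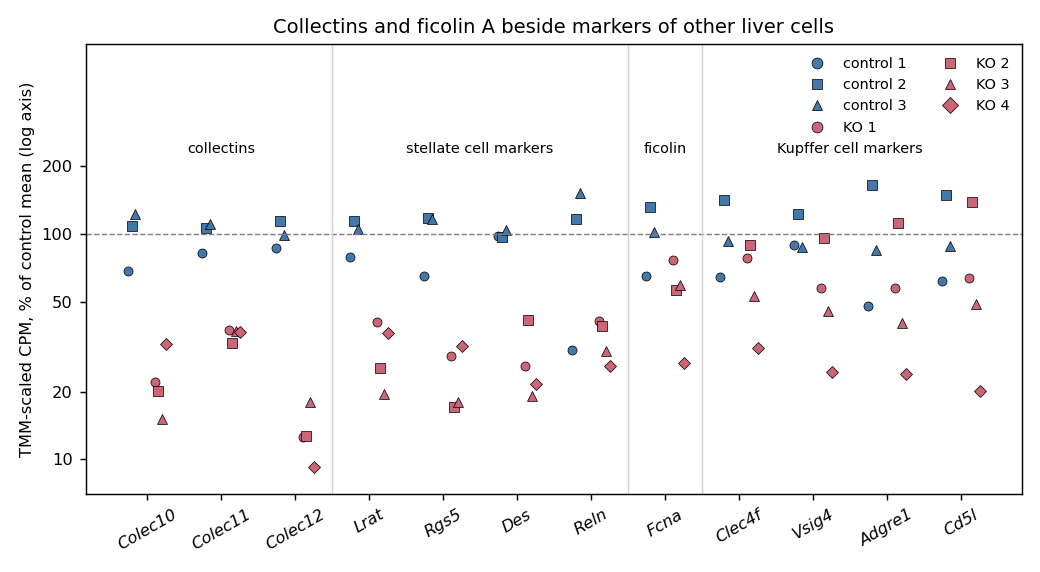
Collectin genes, stellate cell markers, Fcna and Kupffer cell markers in each library, as a percent of the control mean of TMM-scaled CPM on a log axis, with one marker shape per library number. Colec10, Colec11, Colec12, Lrat, Rgs5 and Des have every KO library (red) under every control (blue), while Reln, Fcna, Clec4f, Vsig4, Adgre1 and Cd5l overlap. The markers are a choice from each list and do not stand for it. All stellate markers shown fell, but Col1a1, Col1a2 and Col3a1, not shown, did not pass. None of the Kupffer cell markers shown passed, but C1qb and Slc40a1, not shown, fell with no overlap.

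Per kilobase of annotated exon, the levels of the 10 lectins ran over several orders of magnitude. Clec4g led in both genotypes, with 1669 ± 83.7 CPM per kb in controls and 564 ± 136 in KO. In controls Clec14a followed at 202 ± 19.5 CPM per kb, then Clec2d at 103 ± 10.2, Clec1b at 64.1 ± 1.99, Clec1a at 23.7 ± 6.78 and Cd209b at 11.2 ± 2.16. Fcna, Colec11 and Colec12 came last among those tested, at 4.00 ± 1.34, 2.27 ± 0.351 and 1.90 ± 0.262 CPM per kb. Only Colec11 and Colec12, of the neighbours in this order of 9, had overlapping control libraries. In the KO, Clec2d (114 ± 16.0 CPM per kb) stood above Clec14a (87.7 ± 22.3), and Fcna (2.20 ± 0.826) above Cd209b (1.22 ± 0.755). The libraries of each of those pairs overlapped in the KO, as did those of Cd209b and Colec11 and of Clec1b and Clec1a (24.5 ± 3.03 and 20.5 ± 3.53 CPM per kb). With the median length of the annotated transcripts in place of all exons, an alternative chosen after seeing the data, Clec1b came next after Clec4g in both genotypes, at 384 and 147 CPM per kb.

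**Figure D3:**
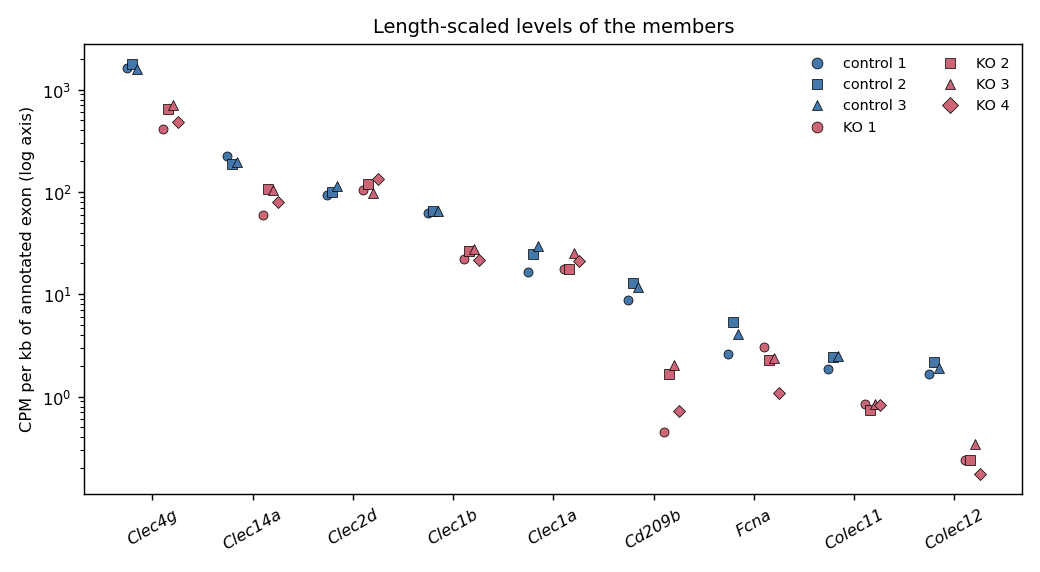
Length-scaled level of 9 lectin genes in each library, in CPM per kilobase of annotated exon on a log axis, ordered by the control mean. Clec4g leads in every library, and among the KO libraries (red) Clec2d overlaps Clec14a, and Cd209b overlaps Fcna and Colec11.

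Summed over the 10 lectins, controls 1 to 3 held 5628, 5836 and 5506 CPM and KO 1 to 4 held 1638, 2451, 2631 and 1952 CPM, 38.3% of the control mean. Clec4g made up 72.6% ± 1.51 of that sum in controls and 63.7% ± 2.17 in KO. Set against Cdh5 in the same library, Clec4g stood at 43.6% of its control level, Clec1b at 50.1%, Clec14a at 56.2%, Colec11 at 48.1%, Colec12 at 17.0% and Cd209b at 13.3%. The groups of these 6 still did not overlap on that scale. Clec1a, Clec2d and Fcna were at 112%, 149% and 73.4% of control relative to Cdh5, with overlapping groups. These percents depend on the reference gene, and no other was tried. Cdh5 itself was at 77.0% of its control mean and did not pass. Among the other endothelial identity genes, Tek, Kdr, Erg and Pecam1 fell to 48.7%, 55.2%, 60.5% and 64.4%. Egfl7 rose to 149%, and Tie1, Emcn, Esam and Robo4 did not pass.

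The KO libraries were ordered alike in most of the fallen lectins: KO 1 and KO 4 were the lowest in 5 of 6, Colec11 being the exception, and in 64.6% of all 3448 genes that fell. Without both, the 6 genes still fell, with log2 fold changes from -2.69 for Colec12 to -0.93 for Clec14a. By the labels, lane 4 held control 3 and KO 3, and lane 5 held the rest. In lane 5 alone the same 6 fell, from -3.55 for Cd209b to -1.37 for Clec14a. Lane 4, with 1 library of each genotype, allows no test. All 6 calls held in each of 18 alternative settings, including scaling to library totals and upper-quartile factors, which moved the median log2 fold change of all genes to 0.31 and 0.17.

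The genes whose values over the 7 libraries were most like those of Clec4g, by root mean square difference of log2 CPM from the control mean, were Hivep3 (0.0891), Uap1l1 (0.0896), Cd300lg (0.0898), Smim9 (0.0932) and Scpep1 (0.0947). Cd300lg, a mucin-like receptor gene of capillary endothelium, was at 1618 ± 25.9 CPM in controls and 584 ± 133 CPM in KO. Uap1l1 was at 151 ± 5.60 and 50.7 ± 10.8 CPM. Of the other lectins Clec1b came closest, at a difference of 0.202 and 95th of 15511 genes, then Clec14a at 0.295 and Colec11 at 0.323.

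Beyond the 10 genes, 30 of 55 other genes with a C-type lectin domain had enough counts to be tested, of which 10 fell, 2 rose and 18 did not pass. Their median log2 fold change was -0.72, and 33.3% fell, beside 22.2% of all genes tested. Without KO 1 and KO 4, 6 of the list fell. The mannose receptor gene Mrc1, which clears glycoproteins and collagen fragments from blood, stood at 3450, 4038 and 3744 CPM in controls and 553, 818, 1090 and 571 CPM in KO 1 to 4. It fell 4.94-fold (log2 fold change -2.30, SE 0.241, edgeR adjusted p = 0.000117). Of its family, Pla2r1, the phospholipase receptor gene, fell from 208 ± 10.1 to 100.1 ± 12.9 CPM (edgeR adjusted p = 0.000119). Mrc2 and Ly75 were under 1 CPM on average in both genotypes and did not pass. Cd302 fell from 68.2 ± 4.45 to 41.2 ± 5.61 CPM and the hyaluronan receptor gene Layn from 28.6 ± 1.62 to 19.0 ± 2.00 CPM (edgeR adjusted p = 0.000884 and 0.0019). Thrombomodulin, Thbd, the thrombin receptor of endothelium, fell from 482 ± 163 to 269 ± 38.5 CPM with overlapping groups (edgeR adjusted p = 0.0125, and 0.0952 without KO 1 and KO 4).

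The 2 endothelial selectin genes, whose products catch leukocytes on the vessel wall, went opposite ways. Selp fell from 40.4 ± 11.8 to 19.0 ± 4.72 CPM (edgeR adjusted p = 0.00398). Sele rose from 8.48, 14.1 and 9.91 CPM in controls to 93.0, 80.7, 22.4 and 32.5 CPM in KO 1 to 4 (log2 fold change 2.40, SE 0.497, edgeR adjusted p = 0.00432). KO 1 and KO 2 were its highest libraries, and in them the 15 stress genes of cell dissociation, of which 7 rose, had their highest median levels, 239% and 212% of control against 118% and 150% in KO 3 and KO 4. The part of that stress in the level of Sele was not tested. Asgr1, a receptor gene of hepatocytes, rose from 1.52 ± 0.375 to 3.92 ± 1.77 CPM (edgeR adjusted p = 0.0153, but 0.0564 without control 1 and 0.0903 without KO 1 and KO 4). It moved with the hepatocyte markers, of which 8 of 12 rose, Asgr1 being one, from sums of 287 to 345 CPM in controls to 397 to 1533 CPM in KO, and their part in Asgr1 was not tested. Over all genes tested, 23.0% rose.

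Clec9a, which overlaps Clec1b, fell from 98.9 ± 16.3 to 68.6 ± 4.83 CPM (edgeR adjusted p = 0.00595), a call that library totals ended (edgeR adjusted p = 0.109). It is known from dendritic cells. Of 11 dendritic cell markers, 4 were too scarce here to be tested (Flt3, Xcr1, Clec10a and Siglech). Of the 7 tested, Clec9a itself, Ccr7 and Cd74 fell and 4 did not pass, among them Zbtb46 and Cst3, at 342 and 190 CPM in controls. The fungal glucan receptor gene Clec7a and the activation marker Cd69 were low, with means of 3.43 and 2.23 CPM in controls and 1.26 and 1.05 CPM in KO (edgeR adjusted p = 0.0172 and 0.0251). Without control 2 the adjusted p in edgeR was 0.0907 for Clec7a and 0.12 for Cd69, and for Cd69 it was 0.0512 without control 1 and 0.0617 without KO 4. Without KO 1 and KO 4 together it was 0.095 for Clec7a and 0.147 for Cd69, and with library totals 0.0545 for Cd69. Bcan, a proteoglycan gene, had 9.21, 12.1 and 0.921 CPM in controls and 0.738 to 1.69 CPM in KO. It fell by the test (edgeR adjusted p = 0.0096), although control 3 lay inside the KO range, and the call was lost with limma-voom (adjusted p = 0.0761) and in edgeR without KO 1 and KO 4 (adjusted p = 0.0755).

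Among 20 genes of the lectin pathway of complement and its regulators, 17 were tested, of which 6 fell, 1 rose and 10 did not pass, with a median log2 fold change of -0.50. The share that fell was 35.3%, beside 22.2% of all genes tested. Cd55, which speeds the decay of complement convertases on cells, fell 3.93-fold from 1301 ± 260 to 331 ± 65.5 CPM (edgeR adjusted p = 8.2e-05). The related regulator Cr1l fell 1.45-fold, while Cd46 was at 7.37 ± 0.776 and 7.60 ± 1.17 CPM and Cd59a at 144 ± 88.1 and 102 ± 32.8 CPM, neither past the test. Masp1, the protease gene whose product rides on collectins and ficolins, fell from 274 ± 2.76 to 152 ± 45.6 CPM (edgeR adjusted p = 0.00808). The anaphylatoxin receptor gene C5ar1 fell from 2.55 ± 0.431 to 0.339 ± 0.138 CPM (edgeR adjusted p = 0.000173).

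The mannose-binding lectin gene Mbl2, made in hepatocytes, was the gene that rose, from 0.758 ± 0.0712 to 1.94 ± 1.19 CPM, barely past the threshold (edgeR adjusted p = 0.0499). It passed in 6 of 18 alternative settings, and without control 1, control 2, control 3, KO 1 or KO 4 its edgeR adjusted p was 0.125, 0.124, 0.0951, 0.109 and 0.114. Its relative Mbl1 and the protease gene Masp2 had 0.594 and 0.599 CPM in controls and 1.41 and 1.64 CPM in KO and did not pass. KO 1 was the highest library of all 3 genes, as it was for the hepatocyte markers, whose part in them was not tested.

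Of 22 genes for lectin ligands and for signalling below lectin receptors, 17 were tested, 6 fell, none rose and 11 did not pass, with a median log2 fold change of -0.53. The share that fell was 35.3%, beside 22.2% of all genes tested. Clec1b signals through the kinase Syk, the adaptor Lcp2, Vav proteins and the phospholipase Plcg2. Lcp2 fell 3.05-fold, from 37.2, 33.8 and 39.7 CPM in controls to between 7.46 and 16.8 CPM in KO (edgeR adjusted p = 0.000997). Vav3 fell from 74.2 ± 9.22 to 42.8 ± 7.15 CPM and Plcg2 1.83-fold to 2.73 ± 0.0804 CPM (edgeR adjusted p = 0.00163 and 0.00314). Syk itself was at 3.52 ± 1.88 and 4.67 ± 0.384 CPM and did not pass (edgeR adjusted p = 0.318). Fcer1g, the signalling chain of Fc and lectin receptors, fell from 62.8 ± 4.84 to 38.6 ± 3.92 CPM, and the integrin chain Itgb1 from 872 ± 56.1 to 486 ± 119 CPM (edgeR adjusted p = 0.000574 and 0.00515). Podoplanin, the Clec1b ligand encoded by Pdpn, averaged 0.886 CPM in controls, nearly all of it in control 3 (2.32 CPM), and 0.298 CPM in KO, and did not pass (edgeR adjusted p = 0.254). Bcl10 and Malt1, signalling partners below other lectin receptors, were at 43.9 ± 1.55 and 40.0 ± 1.91 CPM in controls and 38.8 ± 4.81 and 38.7 ± 0.723 CPM in KO and did not pass.

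**Figure D4:**
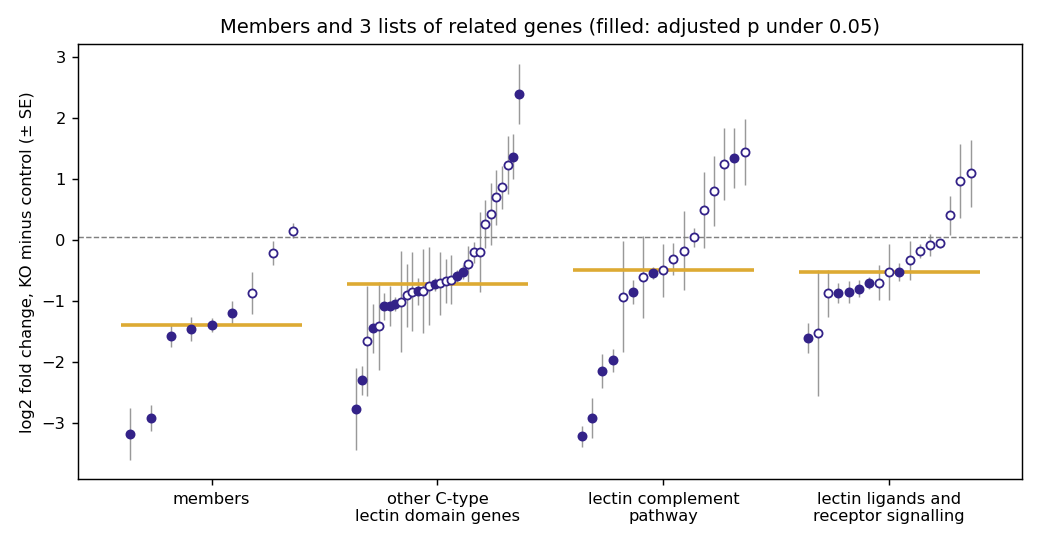
Log2 fold change of KO minus control for each tested gene of the 10 members and of 3 lists of related genes, with vertical bars of 1 SE on either side. Filled points passed at an adjusted p under 0.05, the short orange lines are list medians (-1.39, -0.72, -0.50 and -0.53) and the dashed line is the median of all genes tested, 0.04.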

How the data were processed

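The authors deposited raw read counts for each Ensembl gene, not normalized. Genome build GRCm38, FastQC 0.11.5 and STAR 2.7.6a are named in the submitters' processing notes; the sources used here do not give the counting tool, annotation release or strand setting, and per the labels' protocols libraries were made with an unstranded or a stranded kit, so antisense and overlapping genes are uncertain. Symbols and coordinates come from GENCODE mouse release 21 (52489 of 52636 IDs matched), promoters from RefSeq. In R 4.3.3, genes passing filterByExpr (minimum count 10, total 15) in edgeR 4.0.16 were scaled by TMM (factors 0.8767 to 0.9211 in controls, 1.043 to 1.135 in KO) and tested by its quasi-likelihood F-test without covariates (Benjamini-Hochberg adjusted p, threshold 0.05); SE is the absolute log2 fold change over the square root of F. The test was tried on simulated data with few changed genes, raised and lowered in equal number, which does not probe the scaling between the genotypes. The 18 alternatives were other scalings and filters, DESeq2 1.42.0, limma-voom (limma 3.58.1), lane, replicate block and left-out libraries. Replicates differed by more than sampling noise. Detection limits cover counting error only, since reads are not independent molecules.

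The members, lists and tests were chosen with earlier results of these data known. Named were all members, Maf, genes past the threshold in 3 pathway lists, other list genes by value, cell type defining genes, and the 5 genes most like the lectin with the highest length-scaled control level. Gabarapl1, Gm16553, Gm43914, Klrd1 and Klre1 were named after their values were seen, as neighbours of members. A gene of the complement list is counted but not reported here.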

Additional observations from a re-analysis of the deposited data

Results flagged for a closer look

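Colec11 in KO 2 was the only value of a member, in the group of 4 KO libraries, set apart from its group. At 1.20 CPM it lay under the other 3 KO libraries (1.36 to 1.38 CPM), and its gap to the nearest was 0.873 of the group's whole range, above Dixon's critical value for 4 samples. The range itself is narrow and rests on 37 to 47 counts per library. Chance sets apart about 1 in 20 groups.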

How the results depend on the processing

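Clec4g, Cd209b, Clec1b, Clec14a, Colec11 and Colec12 fell in all 108 pairs of gene and alternative. The number of lectins that fell was 6 to 7 when 1 library was left out. With library totals the log2 fold change of Clec1a turned to 0.0484, Clec2d passed and 1 lectin rose; Fcna passed in 4 alternatives. Other C-type lectin domain genes that rose numbered 4 with upper-quartile factors, library totals, no filter, DESeq2 and lane 5 alone, 1 with the replicate block and without KO 1 and KO 4, and 1 to 4 when 1 library was left out; those that fell were 6 without KO 1 and KO 4. Complement pathway genes that rose numbered 2 with upper-quartile factors, library totals, no filter and DESeq2, 0 with size factors of DESeq2 in edgeR, at least 1 CPM in 3 libraries, limma-voom, lane as covariate, lane 5 alone, the replicate block and without KO 1 and KO 4, and 0 to 3 when 1 library was left out. Ligand and signalling genes that rose numbered 1 with library totals and no filter, 2 in lane 5 alone, and 0 to 2 when 1 library was left out. Over all genes, 1976 fell and 6373 rose with library totals (76.3% of calls rising, against 50.8%, and 63.4% with upper-quartile factors), 2234 rose without KO 1 and KO 4, and 2584 to 3930 fell and 2379 to 3769 rose when 1 library was left out. The cause of these shifts was not tested. Deviations of same-numbered libraries correlated at -0.0133, 0.162 and 0.0674, against -0.176 to 0.0781 for libraries of different numbers. With so few libraries this neither shows nor excludes a pairing by number. With the replicate block 2627 genes fell and 2542 rose, and the 6 lectins still fell. Asgr1, Mbl2, Mmrn2, Reln and Pdgfra did not pass with it (edgeR adjusted p = 0.0714, 0.157, 0.0939, 0.114 and 0.0554). Colec11, Fcna and Cd209a rest on few counts, which limits the differences that can be seen.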
